A study of Arabidopsis thaliana with 48 samples.

Results

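The expression of each gene in myc2-3 shoots was examined for a dependence of its response to microbes on the light level. The 12 libraries labelled shoot and myc2-3 were taken from the 48 libraries of the series, which also hold myc2-3 roots and the shoots and roots of a MYC2-FLAG line. All plants were 5 weeks old and grew in the FlowPot system, in which sterile peat is either left free of microbes or receives a defined community of bacteria, fungi and oomycetes (BFO). The 4 groups of 3 libraries each were LP +BFO (low photosynthetically active radiation, labelled Shade, inoculated), LP −BFO (Shade, not inoculated), NC +BFO (control light, labelled Normal, inoculated) and NC −BFO (Normal, not inoculated). Every plant in all 4 groups carried the same mutation: myc2-3 is a single T-DNA insertion line (salk_061267) of the gene for MYC2, so no group here has a wild-type MYC2. The growth protocol in the labels names Col-0, whereas the genotype label of these libraries is myc2-3, which was followed. The comparison line, jin1-8 pMYC2::MYC2-FLAG, carries a tagged MYC2 under its own promoter in a myc2 mutant background. Reads of a latent virus made up most of the reads in many of the myc2-3 samples, and which ones is not given in the sources used here. From the clustering of its myc2-3 samples, the study judged that the virus had no significant effect on plant expression.

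Plants that grow under low light or under the shade of neighbours elongate, draw on their carbon reserves and commonly lower their defence against pathogens, whereas colonised roots can change both defence and nutrient responses in the shoot. MYC2 is a basic helix-loop-helix transcription factor that carries the jasmonate signal, binds the G-box and is held back by the JAZ repressors. It is placed between the jasmonate, salicylic acid and light pathways, which is why its mutant was grown with and without BFO at both light levels. The question addressed here is where, in shoots that lack an intact MYC2 gene, the response to BFO differed between LP and NC.

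The interaction of a gene is the log2 ratio of +BFO over −BFO under LP minus the same log2 ratio under NC. A positive value means that the response to BFO was more positive under LP, whether because BFO raised the gene under LP or lowered it under NC. The same number results if the light response without BFO is subtracted from that with BFO, so the interaction alone does not say which of the 4 groups stands apart, and the levels in all 4 are given below. Levels are normalised counts scaled to a common library size (CPM, the usual unit of RNA-seq levels), always in the order of replicates 1, 2 and 3. A gene was called when its absolute log2 value was at least 1 and its adjusted p was under 0.05 in the quasi-likelihood test of edgeR, adjusted by Benjamini and Hochberg's method over 21098 tested genes. Errors of log2 values are standard errors (SE).

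MYC2, the mutated gene, was at 9.37, 8.97 and 5.85 CPM in LP +BFO, against 8.30, 5.87 and 6.75 CPM in LP −BFO, and at 5.94, 13.6 and 9.80 CPM in NC +BFO, against 5.48, 12.2 and 17.8 CPM in NC −BFO shoots. Reads were thus counted in the gene in every mutant library, at levels below the lowest MYC2-FLAG shoot library (54.3 CPM). Between 5162823 and 8970837 reads were counted in genes in each of the 12 libraries. Every library correlated better with the other libraries of its group than with any other library. Within their groups the mean correlation of log2 CPM was lowest for LP +BFO replicate 2, at 0.965, and this library also had the highest share of counts from the chloroplast genome (3.06%) and of reads outside annotated genes (4.08%). LP −BFO replicate 2 differed from its group in several defence genes given below. For many of the results below that moved without one of these libraries, though not for all, the value without that library follows. The 8 leaf markers had summed levels of 31675 to 42239 CPM in LP +BFO, 54657 to 58167 CPM in LP −BFO, 49347 to 55693 CPM in NC +BFO and 55854 to 57461 CPM in NC −BFO shoots. Root markers summed to 22.5 to 30.2 CPM in LP +BFO, 29.3 to 31.9 CPM in LP −BFO, 23.3 to 28.7 CPM in NC +BFO and 44.7 to 47.4 CPM in NC −BFO shoots, and CASP1, EXPA7, MYB36 and WOX5 were at or near 0. The lower leaf marker sum of LP +BFO moves with the groups compared, and its part in the results was not tested. In bulk tissue, fewer cells of a type and less RNA per cell cannot be told apart.

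The response to BFO differed between LP and NC for 1417 genes, which is 6.72% of the genes tested. For 826 genes (3.92%) it was more negative under LP, and for 591 genes (2.8%) it was more positive. The median interaction was −1.47 among the calls on the negative side and 1.47 among those on the positive side, against 0.01 over all genes. Within LP, 1008 genes (4.78%) rose and 552 (2.62%) fell with BFO, 7.39% in all. Within NC, 1837 genes (8.71%) rose and 1185 (5.62%) fell with BFO, 14.3% in all. LP raised 948 genes (4.49%) and lowered 655 (3.1%) in the presence of BFO, 7.6% in all, and it raised 784 (3.72%) and lowered 732 (3.47%) in its absence, 7.19% in all.

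Most calls came from genes that responded to BFO under NC without a called response under LP. Of the 826 genes on the negative side, 511 (61.9%) were called as raised by BFO under NC only, 72 were raised at both light levels, 64 were lowered under LP only, and 4 were lowered under LP and raised under NC. NC −BFO was the group of lowest mean level for 689 of these 826 genes, and NC +BFO was the highest for 573. Of the 591 genes on the positive side, 310 (52.5%) were lowered by BFO under NC only, 55 were raised under LP only, 24 were lowered at both light levels, and 12 were raised under LP and lowered under NC. NC −BFO was the highest group for 346 of the 591 and NC +BFO was the lowest for 424. The remaining calls passed neither single test or fell into smaller classes.

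**Figure D1:**
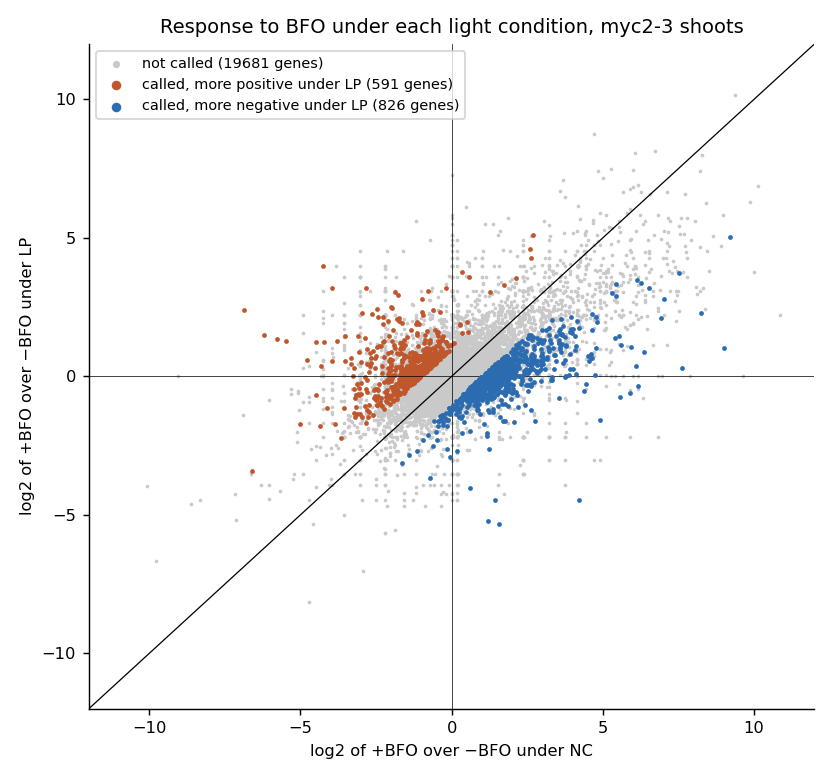
Response to BFO (log2 of +BFO over −BFO) under LP, on the vertical axis, and under NC, on the horizontal axis, for each tested gene in myc2-3 shoots. Genes called in the interaction are orange (591, more positive under LP, above the diagonal) and blue (826, more negative under LP, below it), and most blue genes lie to the right of 0 under NC at values near 0 under LP.

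Sulphur starvation genes had the most negative interaction of all the lists examined. These genes are induced when sulphate or its reduced products run short, and the list holds adenosine phosphosulphate reductases, which carry out the committed step of sulphate reduction, and LSU and SDI proteins. All 10 members were tested, and 8 (80%, against 3.92% of all genes) were called on the negative side and none on the positive side. Their median interaction was −2.93, with a range of −6.43 to −0.89. BFO lowered 7 of the 10 under LP, where the median response was −2.66, and raised 2 under NC, where the median response was 0.55. The summed level of the list was 151, 134 and 154 CPM in LP +BFO, against 1039.2, 690 and 888 CPM in LP −BFO shoots. Under NC the sum was 427, 787 and 468 CPM in +BFO, against 516, 473 and 635 CPM in −BFO shoots. The groups did not overlap under LP and overlapped under NC. The count of calls was also 8 when replicate 2 of LP +BFO and of LP −BFO were both left out.

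SHM7, annotated as a serine hydroxymethyltransferase, had the smallest adjusted p of the list. The 250 bases before its annotated start are shown for that reason (TAIR10.1, chr1:13698740-13698989, minus strand, from RefSeq). TTGAC (W-box core, on either strand) and AAATATCT (evening element, on either strand) are in capitals.
SHM7: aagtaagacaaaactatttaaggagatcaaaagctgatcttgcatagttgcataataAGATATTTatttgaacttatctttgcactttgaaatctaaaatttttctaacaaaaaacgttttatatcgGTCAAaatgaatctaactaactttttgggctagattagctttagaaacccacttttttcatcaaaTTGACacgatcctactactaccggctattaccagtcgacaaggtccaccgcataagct
The sequence holds 2 W-box cores and 1 evening element.

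SHM7 was at 23.2, 14.7 and 26.7 CPM in LP +BFO, against 164, 110 and 135 CPM in LP −BFO shoots. Under NC it was at 91.2, 123 and 107 CPM in +BFO, against 36.6, 43.6 and 56.4 CPM in −BFO shoots. Neither pair of groups overlapped, and the pairs ran in opposite directions. Its interaction was −3.86 ± 0.29 (SE; adjusted p = 3.94e-12), made of a fall by 2.63 under LP (adjusted p = 3.77e-12) and a rise of 1.23 under NC (adjusted p = 3.83e-06). APR3, an adenosine phosphosulphate reductase, was at 38.6, 46.7 and 43.7 CPM in LP +BFO, against 379, 257 and 335 CPM in LP −BFO shoots. Its NC +BFO values of 110, 217 and 124 CPM overlapped the NC −BFO values of 170, 125 and 173 CPM. The response of APR3 fell by 2.92 under LP and was −0.06 under NC, where it was not called, and the interaction was −2.85 ± 0.35 (adjusted p = 1.9e-07). APR2, a second enzyme of this family, was at 44.9, 35.9 and 42.9 CPM in LP +BFO, against 223, 180 and 206 CPM in LP −BFO shoots. In NC +BFO shoots APR2 was at 115, 272 and 130 CPM, against 222, 212 and 278 CPM in NC −BFO shoots, and its interaction was −1.82 ± 0.26 (adjusted p = 2.93e-06). APR1 followed with an interaction of −2.87 (adjusted p = 4.91e-06).

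SDI1 (SULPHUR DEFICIENCY-INDUCED 1, listed as ATSDI1) was at 1.27, 0 and 0.557 CPM in LP +BFO, against 42, 9.88 and 24.8 CPM in LP −BFO shoots. It was at 9, 4.21 and 8.43 CPM in NC +BFO, against 1.18, 2.95 and 5.46 CPM in NC −BFO shoots. Its interaction of −6.43 ± 0.92 (adjusted p = 3.3e-06) was the lowest of the list and rests on few counts in LP +BFO. LSU1 and LSU2, of the low-sulphur family, had interactions of −4.63 (adjusted p = 0.000223) and −2.99 (adjusted p = 0.00133). GGCT2;1 (AT5G26220), which degrades glutathione, had an interaction of −2.46 (adjusted p = 0.00107) and differed from the others in that BFO raised it under NC (1.76) without a called response under LP (−0.69). The members not called were the vacuolar sulphate exporter SULTR4;2 (−0.89) and the beta-glucosidase BGLU28 (−3.10, adjusted p = 0.317).

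Nitrate and ammonium genes also shifted to the negative side. Of 21 tested members, 10 (47.6%, against 3.92% of all genes) were called negative and none positive, with a median interaction of −1.10. BFO raised 9 of the 21 under NC and 3 under LP. The call count was 6 when replicate 2 of LP +BFO and of LP −BFO were both left out. BT2, GDH1 and LBD37 kept their calls in that fit. The other called members named below were not checked singly there, so some of their calls may be among those lost. BFO lowered 3 of the 21 under LP, against 7 of 10 in the sulphur list.

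BT2, a BTB and TAZ domain protein known for its response to nitrate, sugar and the clock, had the smallest adjusted p of the list. Its upstream 250 bases are shown for comparison with SHM7, with the same capitals (TAIR10.1, chr3:17910739-17910988, minus strand).
BT2: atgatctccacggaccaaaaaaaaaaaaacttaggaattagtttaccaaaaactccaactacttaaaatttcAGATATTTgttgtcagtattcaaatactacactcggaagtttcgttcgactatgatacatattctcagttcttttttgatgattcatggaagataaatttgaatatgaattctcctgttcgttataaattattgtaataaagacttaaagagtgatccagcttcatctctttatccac
The sequence holds 1 evening element and no W-box core.

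BT2 was at 571, 444 and 557 CPM in LP +BFO, against 415, 490 and 405 CPM in LP −BFO shoots. Under NC it was at 1034.1, 860 and 1007.6 CPM in +BFO, against 61.5, 58.6 and 58.5 CPM in −BFO shoots. The groups overlapped under LP and were far apart under NC, where BT2 rose by 4.02, and its interaction was −3.76 ± 0.26 (adjusted p = 2.64e-13). Its homologue BT1 had an interaction of −2.27 (adjusted p = 3.84e-06). GDH1, a glutamate dehydrogenase, was at 402, 403 and 449 CPM in LP +BFO, against 284, 362 and 320 CPM in LP −BFO shoots. Its NC +BFO values were 496, 384 and 479 CPM, against 133, 119 and 103 CPM in NC −BFO shoots, with an interaction of −1.56 ± 0.20 (adjusted p = 4.87e-07). LBD37, a repressor of nitrogen-responsive genes, had a different shape: 160, 138 and 163 CPM in LP +BFO, against 318, 317 and 260 CPM in LP −BFO shoots. In NC +BFO it was at 231, 217 and 216 CPM, against 196, 213 and 181 CPM in NC −BFO shoots, and the interaction was −1.12 ± 0.16 (adjusted p = 2.95e-06).

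Transporters of nitrate and ammonium were among the calls made with all libraries. NRT1.1, the dual-affinity nitrate transporter and sensor, had an interaction of −1.39 (adjusted p = 3.6e-05), NRT2.1 (listed as NRT2:1), a high-affinity nitrate transporter, one of −3.40 (adjusted p = 0.0152), and AMT1;1, an ammonium transporter, one of −1.37 (adjusted p = 0.000366). AMT1;2 was lowered by BFO at both light levels, by 3.72 under LP and by 3.98 under NC on the log2 scale, and had an interaction of 0.26 that was not called (adjusted p = 0.898). The nitrate-assimilation enzymes NIA1, NIA2 and NIR1 had values of −0.48, −0.63 and −0.44 and were not called. HRS1 (AT1G13300), a nitrate-responsive repressor, was raised by BFO at both light levels and less under LP (interaction −2.41, adjusted p = 0.00192).

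Genes induced by sugar starvation or darkness were raised by BFO in more cases under NC than under LP. These genes are switched on when carbon runs short. Of 16 tested members, 8 (50%, against 3.92% of all genes) were called on the negative side of the interaction. None was called on the positive side, and the median was −1.08. BFO raised 8 of the 16 under LP (median 1.08) and all 16 under NC (median 2.07). Summed over the list, the level was 10481.7, 9085.6 and 8499.6 CPM in LP +BFO, against 5054.9, 6684.7 and 5844.7 CPM in LP −BFO shoots. The NC sums were 13753.5, 11228.7 and 13740.9 CPM in +BFO, against 3051.7, 3024.8 and 2528.2 CPM in −BFO shoots. The +BFO groups lay above their −BFO groups at both light levels, and the LP groups lay between the NC groups. The number of negative calls was 7 without replicate 2 of LP +BFO and of LP −BFO.

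STP1, a monosaccharide transporter of the plasma membrane, was at 1329.9, 1345.1 and 1179.2 CPM in LP +BFO, against 966, 1306.9 and 1064 CPM in LP −BFO shoots. In NC +BFO shoots it was at 2216, 2012.3 and 2561.6 CPM, against 446, 488 and 365 CPM in NC −BFO shoots. Its response was 0.21 under LP, where the groups overlapped, and 2.39 under NC, and the interaction was −2.18 ± 0.23 (adjusted p = 8.65e-09). TPS11, of the trehalose-6-phosphate synthase family, was at 404, 384 and 353 CPM in LP +BFO, against 347, 436 and 436 CPM in LP −BFO shoots. Its NC +BFO values were 592, 688 and 605 CPM, against 184, 164 and 170 CPM in NC −BFO shoots. The TPS11 groups overlapped under LP and were separate under NC, with an interaction of −1.96 ± 0.15 (adjusted p = 7.08e-12). TPS8 of the same family had an interaction of −1.66 (adjusted p = 1.35e-07). ASN1, an asparagine synthetase induced in the dark, had −1.54 (adjusted p = 0.000323), and DIN10, DYL1, EXL2 and GDH2 were called as well. By contrast, DIN4 (−0.44, adjusted p = 0.217), IVD (0.03, adjusted p = 1) and BGAL4 (−0.39, adjusted p = 0.364) were raised by BFO at both light levels and were not called in the interaction.

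**Figure D2:**
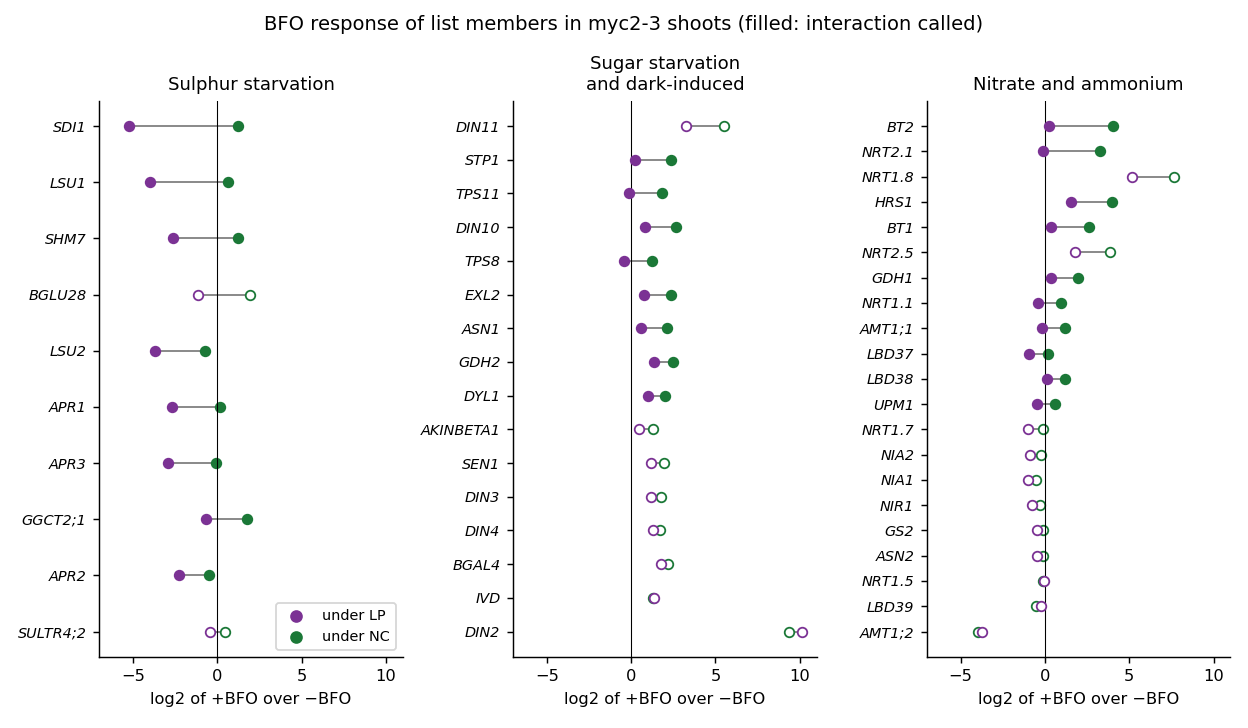
Response to BFO (log2 of +BFO over −BFO, horizontal axis) under LP (purple) and under NC (green) for each tested member of 3 lists in myc2-3 shoots, with filled points where the interaction was called. Sulphur starvation genes lie at medians of −2.66 under LP and 0.55 under NC, and sugar starvation genes at 1.08 under LP and 2.07 under NC.

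Starch and sugar metabolism as a whole did not follow the starvation genes. None of 29 tested members was called in the interaction, and their median was −0.23. Of the 8 starch genes that the study itself names, which were therefore not chosen independently of these samples, none was called either. CT-BMY, the chloroplast beta-amylase BAM3, was lowered by BFO at both light levels: 34.8, 48.3 and 32.9 CPM in LP +BFO, against 99, 123 and 81 CPM in LP −BFO, and 87.5, 134 and 98.9 CPM in NC +BFO, against 429, 375 and 446 CPM in NC −BFO shoots. Its interaction was 0.57 ± 0.44 (adjusted p = 0.442). ADG1, the small subunit of ADP-glucose pyrophosphorylase, was at 110, 102 and 103 CPM in LP +BFO, against 166, 191 and 134 CPM in LP −BFO, and at 210, 253 and 241 CPM in NC +BFO, against 248, 220 and 277 CPM in NC −BFO shoots. The interaction of ADG1 was −0.55 ± 0.17 (adjusted p = 0.0269), below the size needed for a call. The starch synthases SS1 and SS3 (AT1G11720) had −0.58 and −0.29, and PGI1, LSF1, LSF2 and SEX4 had −0.23, −0.15, 0.46 and −0.02.

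Shade-response genes were called in a minority of cases. Phytochrome-interacting factors and their targets drive elongation under low light. Of 20 tested members, 5 (25%, against 6.72% of all genes) were called on the negative side and none on the positive side. The list median was −0.24. Without either LP replicate 2 there were 4 negative calls. One of the most negative interactions of all well-counted genes was that of HB4, which is not in the list. HB4 (ATHB4), a homeodomain-leucine zipper factor of the shade response, was at 27.8, 41.6 and 28.4 CPM in LP +BFO, against 50.8, 48.5 and 67.5 CPM in LP −BFO shoots. It was at 32.9, 35 and 43.5 CPM in NC +BFO, against 2.67, 3.73 and 3.12 CPM in NC −BFO shoots. NC −BFO thus stood apart from the other groups, and the interaction was −4.35 ± 0.37 (adjusted p = 5.03e-11). YUC5, a flavin monooxygenase of auxin synthesis, was at 5.72, 4.37 and 4.18 CPM in LP +BFO, against 7.16, 7.44 and 5.66 CPM in LP −BFO shoots. Its NC +BFO values were 5.10, 7.44 and 8.94 CPM, against 0.444, 0.197 and 0.312 CPM in NC −BFO shoots, and the interaction was −4.89 ± 0.57 (adjusted p = 7.24e-08). HB-2 (ATHB2), a rapid shade-response factor, was at 152, 234 and 162 CPM in LP +BFO, against 181, 187 and 203 CPM in LP −BFO shoots. In NC +BFO shoots HB-2 was at 129, 120 and 158 CPM, against 29.8, 46.2 and 46.7 CPM in NC −BFO shoots, with an interaction of −1.80 ± 0.33 (adjusted p = 0.00018). PAR1, which restrains the shade response, had −2.17 (adjusted p = 7.59e-07), and XTH15, which was also called, had −1.80 (adjusted p = 0.0484). YUC8, a further auxin-synthesis gene, had −1.60 (adjusted p = 0.000417). The factors PIF3, PIF4 and PIF7 themselves had values of −0.09, −0.49 and 0.25 and were not called.

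Genes of cell wall loosening and auxin-responsive growth gave calls in both directions. EXPA1 is an expansin, a protein that loosens the cell wall during growth, and its upstream 250 bases are shown as those of a gene on the positive side, searched for the same motifs (TAIR10.1, chr1:26141476-26141725, plus strand).
EXPA1: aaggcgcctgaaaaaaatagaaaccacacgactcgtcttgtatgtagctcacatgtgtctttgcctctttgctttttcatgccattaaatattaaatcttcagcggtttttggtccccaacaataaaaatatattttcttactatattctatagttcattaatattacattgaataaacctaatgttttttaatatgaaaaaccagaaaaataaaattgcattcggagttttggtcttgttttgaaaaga
Neither motif was found in this stretch, so it has no capitals. The 250 bases before TPS11 and YUC5, both called on the negative side, held neither motif either.

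EXPA1 was at 134, 262 and 165 CPM in LP +BFO, against 232, 197 and 226 CPM in LP −BFO shoots. Under NC it was at 108, 98.9 and 91.8 CPM in +BFO, against 729, 801 and 878 CPM in −BFO shoots. BFO thus lowered EXPA1 under NC (by 3.01 on the log2 scale), the groups overlapped under LP, and the interaction was 2.78 ± 0.32 (adjusted p = 6.36e-08). EXPA8 was at 47.5, 74.3 and 51 CPM in LP +BFO, against 113, 91.3 and 90.7 CPM in LP −BFO, and at 30.1, 36.7 and 31.6 CPM in NC +BFO, against 193, 195 and 196 CPM in NC −BFO shoots. Its interaction was 1.79 ± 0.31 (adjusted p = 5.53e-05). Of 24 tested expansins, 3 were called positive and 2 negative (20.8% in all, against 6.72% of all genes), with a median of 0.00. The positive calls numbered 2 without replicate 2 of LP +BFO, and also without that of LP −BFO. The expansin-like EXLA1 went the other way (−2.23, adjusted p = 0.00804), a call that ended without NC +BFO replicate 3 (adjusted p = 0.0504).

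Xyloglucan endotransglucosylases, which cut and rejoin wall polysaccharides, were split in the same manner, with 2 of 28 called positive and 5 negative, against 1 positive and 2 negative calls without LP −BFO replicate 2, and 1 positive and 7 negative calls without LP +BFO replicate 2. XTH31 was at 3.02, 4.60 and 3.76 CPM in LP +BFO, against 7.49, 3.58 and 7.30 CPM in LP −BFO, and at 1.02, 4.71 and 1.03 CPM in NC +BFO, against 36.3, 48.7 and 50.3 CPM in NC −BFO shoots. Its interaction was 3.79 ± 0.70 (adjusted p = 0.000164). XTH25 was at 11.1, 10.6 and 5.71 CPM in LP +BFO, against 5.70, 5.72 and 2.92 CPM in LP −BFO, and at 12.2, 18.6 and 27 CPM in NC +BFO, against 0.148, 0.590 and 0 CPM in NC −BFO shoots. Its interaction was −5.48 ± 0.79 (adjusted p = 3.16e-06), and both genes had NC −BFO as the group that stood apart. SAUR genes, small auxin-induced transcripts, were mostly on the positive side: 14 of 60 were called positive and 2 negative, with a median of 0.69. The shares called were 25% for xyloglucan endotransglucosylases and 26.7% for SAUR genes, against 6.72% of all genes. The SAUR gene AT2G21210 was at 10.5, 15.2 and 13.8 CPM in LP +BFO, against 18.9, 13.7 and 19.5 CPM in LP −BFO, and at 6.11, 7.69 and 6.02 CPM in NC +BFO, against 62.1, 59.7 and 41.8 CPM in NC −BFO shoots. Its interaction was 2.65 ± 0.47 (adjusted p = 0.000104). Values of neighbouring SAUR copies such as AT2G21200 and AT2G21210 are uncertain, since reads that aligned to several places were not counted. The positive SAUR calls numbered 11 without replicate 2 of LP +BFO and of LP −BFO.

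**Figure D3:**
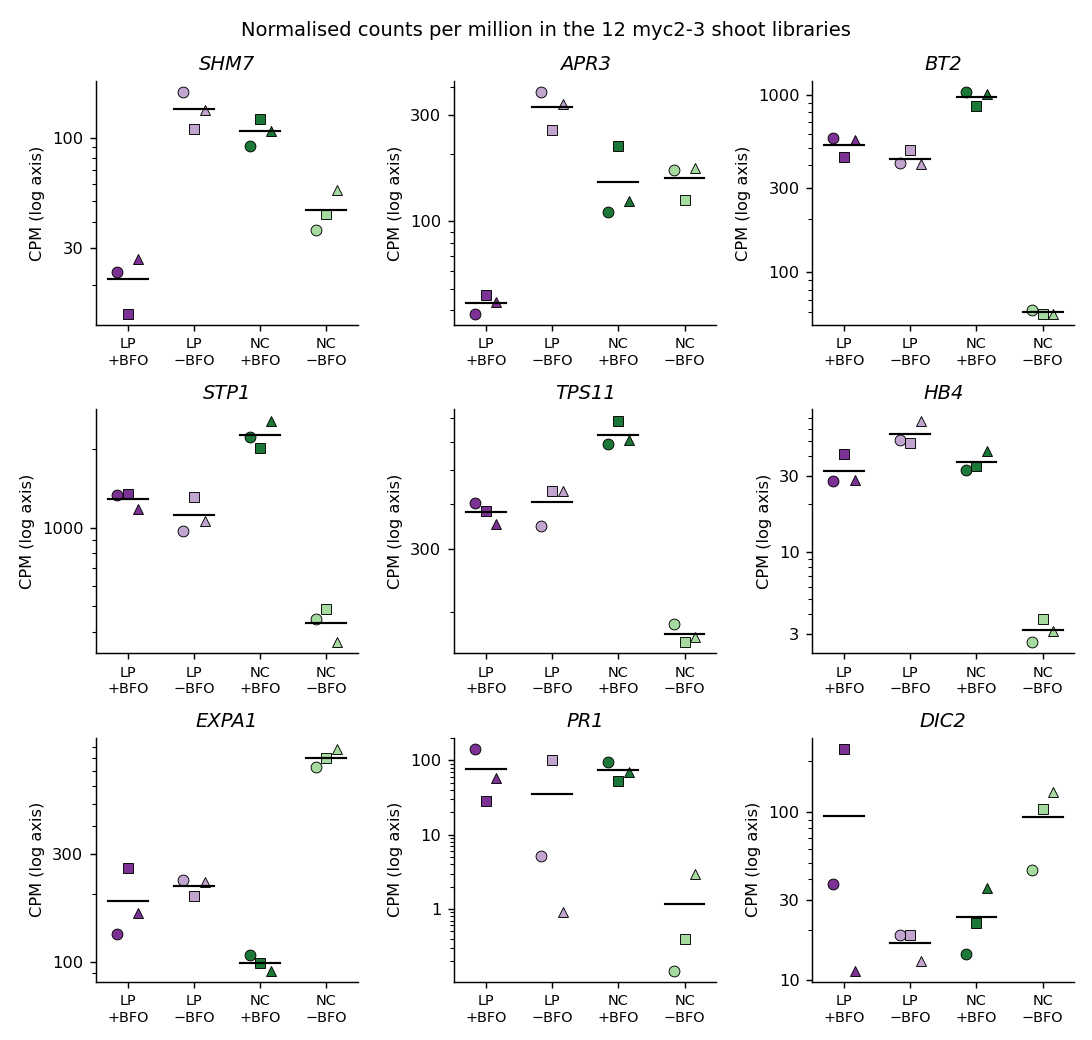
Levels of 9 genes (CPM, log axis) in the 12 myc2-3 shoot libraries, by group (LP +BFO, LP −BFO, NC +BFO and NC −BFO), with circles, squares and triangles for replicates 1, 2 and 3 and a line at the group mean. SHM7 and APR3 are lowest in LP +BFO, BT2, STP1, TPS11 and HB4 are lowest in NC −BFO, EXPA1 is highest there, and PR1 and DIC2 each have 1 LP library far above its group (100 CPM in LP −BFO and 237 CPM in LP +BFO).

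Genes of salicylic acid synthesis and signalling were called in the interaction on the negative side only. Salicylic acid is the hormone of defence against biotrophic pathogens. Of 22 genes of its synthesis and signalling, 4 (18.2%, against 6.72% of all genes) were called, all on the negative side. The list median was −1.13. BFO raised 12 of the 22 under NC and 4 under LP, against 8.71% and 4.78% of all genes. SARD1, a transcription factor that activates salicylic acid synthesis, was at 22.4, 10.8 and 21.6 CPM in LP +BFO, against 10.3, 23.2 and 12 CPM in LP −BFO shoots. It was at 38.9, 25 and 34.4 CPM in NC +BFO, against 1.48, 0.983 and 3.90 CPM in NC −BFO shoots, so that the groups overlapped under LP and were separate under NC. Its interaction was −3.63 ± 0.74 (adjusted p = 0.000562). NPR3, a salicylic acid receptor, had −1.17 (adjusted p = 0.00716), and WRKY54 had −1.48 (adjusted p = 0.0396), a call that ended without LP −BFO replicate 2 (adjusted p = 0.187) and without LP +BFO replicate 2 (adjusted p = 0.075) and was kept in 5 of the 12 fits without 1 library. The count of negative calls in the list was 2 without LP −BFO replicate 2.

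Among 11 outputs of the salicylic acid pathway, 3 (27.3%, against 6.72% of all genes) were called negative and none positive. The median was −1.67, and 1 was called negative without replicate 2 of both LP groups. Under LP, BFO raised 4 and lowered 2 of the 11, and under NC it raised 6. PR1, the usual marker of this pathway, was at 142, 28.8 and 57.1 CPM in LP +BFO, against 5.21, 100 and 0.912 CPM in LP −BFO shoots. It was at 96.3, 53.5 and 69.5 CPM in NC +BFO, against 0.148, 0.393 and 2.97 CPM in NC −BFO shoots. PR1 rose with BFO under NC (5.92, adjusted p = 2.84e-05) and its groups overlapped under LP, where 1 library decides the value. The interaction was −4.84 ± 1.35 (adjusted p = 0.0117) with all libraries and −1.32 (adjusted p = 0.64) without LP −BFO replicate 2. LURP1, a defence gene of this pathway, was at 110, 63.3 and 146 CPM in LP +BFO, against 117, 189 and 160 CPM in LP −BFO, and at 209, 98.9 and 208 CPM in NC +BFO, against 48.6, 29.3 and 66.4 CPM in NC −BFO shoots. Its interaction was −2.37 ± 0.55 (adjusted p = 0.00224). ACD6, a regulator of cell death and salicylic acid level, was at 52.6, 29.4 and 55.1 CPM in LP +BFO, against 136, 185 and 157 CPM in LP −BFO, and at 157, 190 and 186 CPM in NC +BFO, against 179, 220 and 196 CPM in NC −BFO shoots. It was lowered by BFO under LP only (interaction −1.63, adjusted p = 0.0111), and the call ended without replicate 2 of both LP groups (adjusted p = 0.101).

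The study names 7 genes of salicylic acid and systemic acquired resistance, a choice that is not independent of these samples, and 2 of the 7, SARD1 and PR1, were called in the interaction. BGL2 (PR2) was at 43.7, 33.8 and 40 CPM in LP +BFO, against 6.02, 18 and 3.83 CPM in LP −BFO, and at 41.9, 22.1 and 36.8 CPM in NC +BFO, against 7.40, 10.2 and 17.2 CPM in NC −BFO shoots, with an interaction of 0.48 ± 0.74. AZI1, needed for priming of systemic resistance, was at 551, 505 and 519 CPM in LP +BFO, against 41.7, 117 and 48.9 CPM in LP −BFO, and at 329, 180 and 286 CPM in NC +BFO, against 27.3, 36 and 23.9 CPM in NC −BFO shoots, with an interaction of −0.29 ± 0.50. AZI1 and BGL2 thus rose with BFO at both light levels. FRK1, a kinase gene used to read pattern-triggered immunity, was at 136, 78.9 and 97.1 CPM in LP +BFO, against 2.28, 18.7 and 2.19 CPM in LP −BFO, and at 82.7, 60.5 and 71.5 CPM in NC +BFO, against 1.63, 0.590 and 1.87 CPM in NC −BFO shoots. Its interaction was −1.97 ± 0.81 and was not called (adjusted p = 0.0959), and it was −0.11 without LP −BFO replicate 2. EDS5, the salicylic acid exporter of the chloroplast, had −0.32. FMO1, which makes the mobile signal N-hydroxypipecolic acid, was at 3.02, 0.460 and 0.696 CPM in LP +BFO, at 0, 1 and 0 CPM in LP −BFO, at 0.679, 0.496 and 1.55 CPM in NC +BFO and at 0 CPM in each NC −BFO library, so no fold is given. A missed call does not show that the responses under LP and NC were alike.

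Receptors and signalling genes of pattern-triggered immunity were called on the negative side in 5 of 25 cases (20%, against 3.92% of all genes). The median was −0.76. Without LP −BFO replicate 2 there were 4 negative calls. FLS2 (AT5G46330), the receptor of bacterial flagellin, was at 100, 104 and 77.6 CPM in LP +BFO, against 99.6, 104 and 103 CPM in LP −BFO shoots. In NC +BFO it was at 112, 131 and 137 CPM, against 42.9, 50.9 and 42.5 CPM in NC −BFO shoots, with an interaction of −1.61 ± 0.26 (adjusted p = 2.4e-05). LYK4, a chitin co-receptor, was at 16.4, 14.3 and 16.3 CPM in LP +BFO, against 25.1, 33.6 and 27.6 CPM in LP −BFO shoots. It was at 25.8, 31.5 and 39 CPM in NC +BFO, against 9.77, 9.83 and 11.2 CPM in NC −BFO shoots, with an interaction of −2.51 ± 0.32 (adjusted p = 5.21e-07). The 2 genes differed in that the LYK4 groups were separate under LP, +BFO below −BFO, and those of FLS2 overlapped. MPK11, a mitogen-activated kinase, had −2.90 (adjusted p = 0.0034). WRKY18, a regulator of basal defence, was at 39.7, 58.2 and 32.6 CPM in LP +BFO, against 14.3, 34.8 and 10.4 CPM in LP −BFO, and at 66.9, 94.5 and 85.3 CPM in NC +BFO, against 4.15, 4.72 and 5.46 CPM in NC −BFO shoots (interaction −3.01 ± 0.53, adjusted p = 7.95e-05). Among all 59 tested WRKY factors, 6 were called negative (3 without replicate 2 of both LP groups) and 2 positive. Called in either direction were 13.6%, against 6.72% of all genes. BFO raised 25 WRKY factors under LP and 31 under NC, against 4.78% and 8.71% of all genes. Of 39 cysteine-rich receptor-like kinases, 9 (23.1%, against 6.72% of all genes) were called negative and none positive (median −1.03). There were 6 negative calls without LP −BFO replicate 2, and 6 negative and 2 positive calls without replicate 2 of both LP groups. CRK40 and CRK2 had −1.60 (adjusted p = 8.83e-07) and −1.48 (adjusted p = 3.15e-06).

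The most negative interactions among well-counted genes included those of a cation exchanger, a kinase-like protein and a peroxidase. CHX17, the exchanger, was at 66.4, 18.4 and 40.9 CPM in LP +BFO, against 1.95, 12.2 and 3.47 CPM in LP −BFO, and at 76.3, 44.6 and 73.4 CPM in NC +BFO, against 0.740, 0 and 0.625 CPM in NC −BFO shoots. It rose with BFO at both light levels, by 2.80 under LP and 7.01 under NC, and its interaction of −4.21 ± 1.06 (adjusted p = 0.00512) did not pass without LP −BFO replicate 2 (adjusted p = 0.12). AT3G46280, annotated as a kinase-like protein, was at 160, 105 and 130 CPM in LP +BFO, against 1.14, 7.59 and 2.92 CPM in LP −BFO, and at 119, 74.6 and 127 CPM in NC +BFO, against 0.148, 0.393 and 0 CPM in NC −BFO shoots. Its interaction was −4.19 ± 1.35 (adjusted p = 0.029), and the call ended without LP −BFO replicate 2 (adjusted p = 0.213), LP +BFO replicate 2 (0.0531) and NC −BFO replicates 1 (0.0923) and 3 (0.103). AT5G39580, a peroxidase, had −3.81 (adjusted p = 0.0373), and its call was kept in 7 of the 12 fits without 1 library, with an adjusted p of 0.098 without LP −BFO replicate 2 and 0.0652 without LP +BFO replicate 2. In all 3 the +BFO levels overlapped between LP and NC, and the −BFO levels were higher under LP than under NC. AT1G50040, a protein with a domain of unknown function, was at 26.2, 26.7 and 13.6 CPM in LP +BFO, against 15.1, 11.4 and 15.3 CPM in LP −BFO, and at 21.7, 37.2 and 32.2 CPM in NC +BFO, against 1.33, 1.18 and 1.09 CPM in NC −BFO shoots (−3.97 ± 0.50, adjusted p = 3.31e-07).

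Genes for antimicrobial metabolites showed no common direction. PEN3 (AT1G59870), an ABC transporter of defence compounds, was at 1145.6, 814 and 1066.4 CPM in LP +BFO, against 1237.6, 1566.8 and 1276 CPM in LP −BFO shoots. In NC +BFO it was at 2186.1, 2377 and 2429.7 CPM, against 654, 652 and 587 CPM in NC −BFO shoots, and its interaction was −2.32 ± 0.29 (adjusted p = 3.53e-07). PEN2 (AT2G44490), the myrosinase that activates indole glucosinolates in defence, had −1.17 (adjusted p = 0.000207). MYB34, an activator of indole glucosinolate synthesis, was at 2.54, 4.14 and 4.18 CPM in LP +BFO, against 6.02, 5.30 and 6.02 CPM in LP −BFO, and at 1.36, 1.74 and 1.72 CPM in NC +BFO, against 12.7, 14.3 and 15.9 CPM in NC −BFO shoots, and it was called on the positive side (2.48 ± 0.51, adjusted p = 0.000707). Of 13 indole glucosinolate genes, 3 were called negative and 1 positive (30.8% in all, against 6.72% of all genes). Aliphatic glucosinolate genes were lowered by BFO at both light levels, 12 of 18 under LP and 11 under NC, and 3 of 18 (16.7%, against 6.72% of all genes) were called in the interaction. These were the regulators MYB28 (1.21, adjusted p = 0.000208) and MYB29 (1.79, adjusted p = 0.0226) on the positive side and CYP79F1, an enzyme of the core pathway, (−1.51, adjusted p = 0.0176) on the negative side, a call that ended without NC −BFO replicate 1 (adjusted p = 0.0622), NC +BFO replicate 1 (0.0522) or LP −BFO replicate 3 (0.0508). The MYB29 call was kept in 7 of the 12 fits without 1 library and ended without either LP replicate 2 (adjusted p = 0.0644 without that of LP −BFO and 0.0624 without that of LP +BFO). Of 9 camalexin genes, 2 (22.2%, against 6.72% of all genes) were called negative, GSTF6 and NAC042. Each was kept in 3 of the 12 fits without 1 library. Without LP −BFO replicate 2 the adjusted p was 0.15 for GSTF6 and 0.132 for NAC042, and without LP +BFO replicate 2 it was 0.0655 for GSTF6 and 0.0856 for NAC042.

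Of the calls among jasmonate genes, many of which MYC2 controls in plants that have it, more were negative than positive. The interaction of MYC2 itself, whose levels are given above, was 0.50 ± 0.69 (adjusted p = 0.712). Of 16 genes of jasmonate synthesis and breakdown, 2 (12.5%, against 6.72% of all genes) were called, both negative, with a median of −1.01, and 1 was called without either LP replicate 2. LOX2, a lipoxygenase of jasmonate synthesis, was at 182, 118 and 153 CPM in LP +BFO, against 102, 97.5 and 102 CPM in LP −BFO, and at 287, 493 and 415 CPM in NC +BFO, against 58.2, 81 and 107 CPM in NC −BFO shoots. Its interaction was −1.69 ± 0.59 (adjusted p = 0.0483), and the call ended without LP −BFO replicate 2 (adjusted p = 0.079) and without LP +BFO replicate 2 (adjusted p = 0.104), being kept in 3 of the 12 fits without 1 library. CYP94C1, which inactivates the active hormone, had −2.66 (adjusted p = 0.0133), a call that ended without NC −BFO replicate 1 (0.0637) or NC +BFO replicate 2 (0.0623). JAZ repressors and MYC-branch outputs each had 8.3% of their members called, near the 6.72% of all genes. Of 12 JAZ repressors, 1 was called, JAZ3 (−1.40, adjusted p = 8.84e-05). Of 12 MYC-branch outputs, 1 was called, NAC055 (AT3G15500, listed as NAC3), which was at 58.6, 43.2 and 48.9 CPM in LP +BFO, against 31.3, 29.5 and 31 CPM in LP −BFO, and at 114, 87.3 and 113 CPM in NC +BFO, against 16.9, 14.3 and 16.5 CPM in NC −BFO shoots (−1.99 ± 0.37, adjusted p = 0.000195). In the ERF branch, 2 of 13 were called negative, PR4 (−1.12, adjusted p = 0.000537) and HCHIB (adjusted p = 0.0157), and 2 positive, of which none was called without LP +BFO replicate 2. The called share of the ERF branch was 30.8%.

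The most positive interactions among well-counted genes included those of transcripts known to rise within minutes of cold, wounding or handling, and LP +BFO replicate 2 carried much of their level. DIC2, a mitochondrial carrier, was at 37.2, 237 and 11.4 CPM in LP +BFO, against 18.6, 18.5 and 13 CPM in LP −BFO shoots. In NC +BFO it was at 14.3, 21.8 and 35.4 CPM, against 45, 104 and 131 CPM in NC −BFO shoots. Its interaction was 4.42 ± 1.21 (adjusted p = 0.0101) and 2.48 (adjusted p = 0.182) without LP +BFO replicate 2. CBF2, a cold-response activator, was at 14.4, 33.4 and 3.20 CPM in LP +BFO, against 2.44, 4.58 and 3.65 CPM in LP −BFO, and at 2.04, 3.47 and 4.81 CPM in NC +BFO, against 11.8, 20.6 and 23.7 CPM in NC −BFO shoots (4.57 ± 0.92, adjusted p = 0.000442). CAF1a, a deadenylase, was at 62.9, 188 and 12.3 CPM in LP +BFO, against 14.7, 17.5 and 12.8 CPM in LP −BFO, and at 19.4, 22.1 and 38.7 CPM in NC +BFO, against 83.2, 119 and 121 CPM in NC −BFO shoots (4.51 ± 0.96, adjusted p = 0.00101). ERF105 (AT5G51190) and ERF5, both ethylene response factors, had 4.87 (adjusted p = 0.00243) and 3.88 (adjusted p = 0.00514), and the ERF5 call ended without LP +BFO replicate 2 (adjusted p = 0.0985). AT4G29780 had 4.70 (adjusted p = 0.0165), a call that ended without LP +BFO replicate 2 (adjusted p = 0.275) or NC −BFO replicate 3 (0.0632), and AT1G20823 had 4.51 (adjusted p = 0.000452), a call that did not. The loci AT4G22505 and AT4G22513, neighbouring copies whose values are uncertain because reads with several alignments were not counted, had 4.69 (adjusted p = 0.017) and 4.42 (adjusted p = 0.00503). The AT4G22505 call ended without NC +BFO replicate 1 (0.0502), NC +BFO replicate 3 (0.0629) or LP +BFO replicate 3 (0.0637). The ERF105 call ended without replicate 2 of both LP groups (0.0641). The NC −BFO libraries were above the NC +BFO libraries in CBF2, CAF1a and DIC2 alike.

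Of 10 touch and harvest-responsive genes, 2 were called positive and 2 negative (40% in all, against 6.72% of all genes). The median was 0.75, and without LP +BFO replicate 2 there were 1 positive and 4 negative calls. RHL41 (ZAT12), a zinc finger factor of abiotic stress, had 3.78 (adjusted p = 0.00272). TCH3, a calmodulin-like protein of the touch response, was at 706, 1278.4 and 621 CPM in LP +BFO, against 754, 908 and 724 CPM in LP −BFO, and at 1175.8, 1301.5 and 1431.7 CPM in NC +BFO, against 176, 270 and 263 CPM in NC −BFO shoots (−2.34 ± 0.54, adjusted p = 0.00232). EXO, a growth-related secreted protein, had −2.10 (adjusted p = 4.95e-05). Summed over the list, LP +BFO replicate 2 stood at 2549.4 CPM, against 1273.1 and 894 CPM in the other LP +BFO libraries and 959 to 1295.1 CPM in LP −BFO shoots. The sums were 1852.6 to 2540.4 CPM in NC +BFO and 473 to 738 CPM in NC −BFO shoots. Among 15 abscisic acid and cold genes (20% called), 2 were called positive and 1 negative, and 1 and 2 without LP +BFO replicate 2. COR15A, a cold-regulated chloroplast protein, was at 6.19, 10.8 and 4.46 CPM in LP +BFO, against 43, 45.5 and 42.5 CPM in LP −BFO, and at 17.3, 12.9 and 17.5 CPM in NC +BFO, against 31, 29.7 and 47.2 CPM in NC −BFO shoots (−1.52 ± 0.39, adjusted p = 0.00574). COR15A and CBF2, which activates it in cold, were thus called in opposite directions.

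Clock genes gave 3 positive calls and 1 negative call among 27 (14.8%, against 6.72% of all genes), with a median of 0.13. Without LP −BFO replicate 2 there were 2 positive calls. PRR9, a morning repressor, was at 9.21, 9.43 and 7.94 CPM in LP +BFO, against 16.4, 16 and 16.6 CPM in LP −BFO, and at 13.1, 17.6 and 12.9 CPM in NC +BFO, against 62.8, 55.4 and 75.9 CPM in NC −BFO shoots. Its interaction was 1.28 ± 0.29 (adjusted p = 0.00174). RVE1, a morning activator of auxin genes, had 1.26 (adjusted p = 0.00192). PCL1 (LUX), an evening complex member, was at 25.7, 34 and 23.5 CPM in LP +BFO, against 13.3, 10.6 and 10.2 CPM in LP −BFO, and at 20.6, 24.3 and 18.6 CPM in NC +BFO, against 2.67, 5.70 and 4.53 CPM in NC −BFO shoots (−1.05 ± 0.27, adjusted p = 0.00536), close to the size needed for a call, which it kept in 8 of the 12 fits without 1 library. Under NC, BFO thus lowered the morning genes PRR9 and RVE1 and raised PCL1, and under LP the responses were −0.89 for PRR9 (adjusted p = 0.00174) and −0.78 for RVE1 (adjusted p = 0.00489), below the size needed for a call, and 1.27 for PCL1, which was called.

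Genes of the chloroplast genome were called positive in 15 of 81 cases and negative in 1 (19.8% in all), with a median of 0.52. Their summed level was 18731, 37033 and 20321 CPM in LP +BFO, against 22113, 19069 and 26561 CPM in LP −BFO shoots, and the highest library was LP +BFO replicate 2. Under NC the sum was 13755, 20273 and 12756 CPM in +BFO, against 14164, 14886 and 15334 CPM in −BFO shoots. Without replicate 2 of LP +BFO the positive calls numbered 5, without that of LP −BFO 7, and without both 2. Ribosomal protein genes, 314 in number, had 15 positive calls and 1 negative call and a median of 0.42. Called in either direction were 5.1% of them, against 6.72% of all genes tested. Their positive calls numbered 7 without replicate 2 of LP +BFO, 10 without that of LP −BFO and 2 without both. Most calls of both sets were thus lost without these libraries. CYCB1;4, a mitotic cyclin with low counts, was at 4.60, 5.29 and 6.68 CPM in LP +BFO, against 5.21, 5.01 and 4.74 CPM in LP −BFO, and at 0.849, 0.992 and 0.516 CPM in NC +BFO, against 2.52, 3.14 and 4.06 CPM in NC −BFO shoots (2.22 ± 0.53, adjusted p = 0.00302). Of 26 cyclins, 2 were called positive and none negative (7.7%, near the share of all genes tested).

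Several lists had no call at all by edgeR's quasi-likelihood test, among them iron, light stress, flavonoid and anthocyanin, unfolded protein response, heat shock, Calvin cycle and antiviral RNA silencing genes. The 11 antiviral RNA silencing genes, examined because of the latent virus, had a median interaction of −0.13 with a range of −0.65 to 0.88, and none was called as responding to BFO at either light level. The 8 leaf markers had a median of −0.52 and the 9 Calvin cycle and Rubisco genes one of −0.55, and every member of both lists had a negative value. Photosystem and chlorophyll a-b binding genes had a median of −0.36 with 1 call in each direction among 63, and the negative call, LHCB4.3, ended without LP −BFO replicate 2 (−1.67, adjusted p = 0.0593). Phosphate starvation genes had 1 negative call among 18, and senescence genes 1 among 9, SAG21 (−2.34, adjusted p = 0.000242). Glutathione transferases were mixed, with 5 negative and 3 positive calls among 52, and 3 and 1 without LP −BFO replicate 2. The shares called were 3.2% for photosystem, 5.6% for phosphate starvation, 11.1% for senescence and 15.4% for glutathione transferase genes. Over all genes tested the share was 6.72%.

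**Figure D4:**
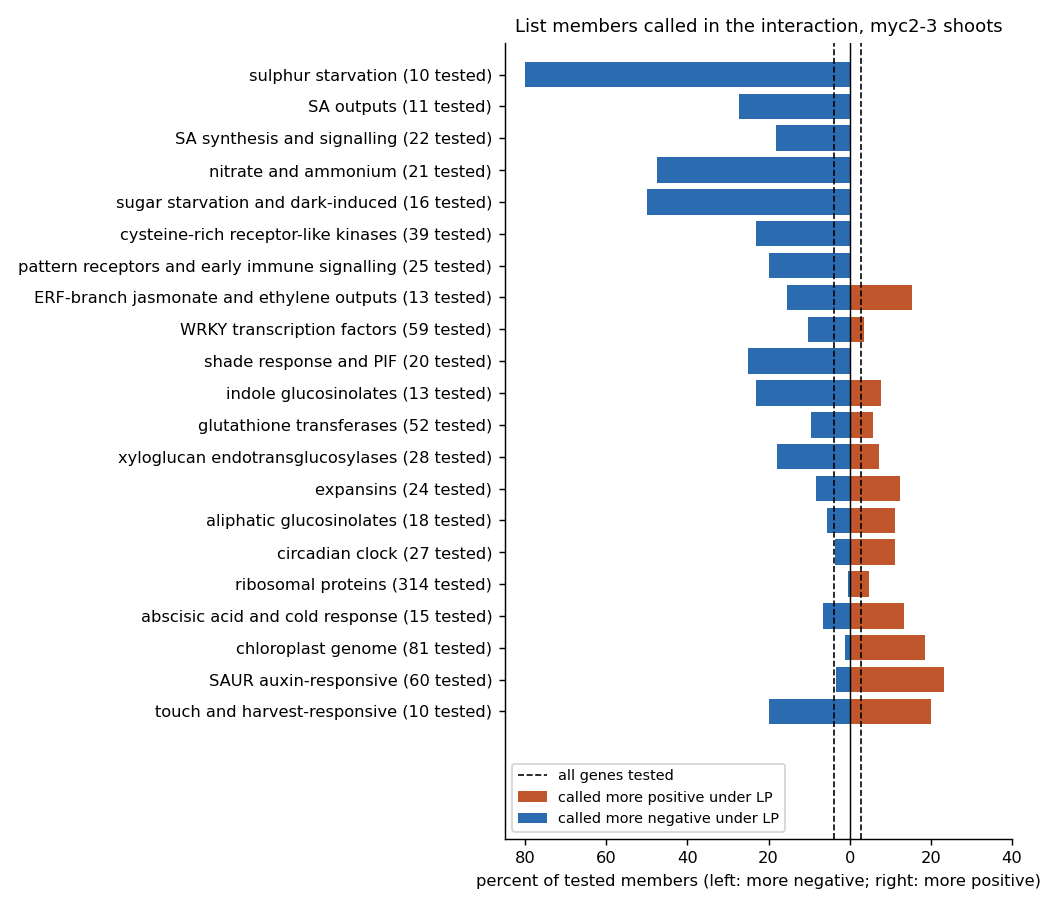
Percent of the tested members of each list that were called in the interaction in myc2-3 shoots, drawn to the left for calls more negative under LP and to the right for calls more positive under LP, with dashed lines at the values for all genes (3.92% and 2.8%). Sulphur starvation genes reach 80% on the negative side, sugar starvation genes 50% and nitrate and ammonium genes 47.6%, and SAUR genes have the longest bar on the positive side, at 14 of 60 members.

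Promoter windows of 300 bases (250 before and 50 after the annotated start) were searched on both strands for short motifs. The W-box core TTGAC, bound by WRKY factors, was present in 59.6% of windows of genes called negative, in 51.5% of those called positive and in 51.4% of all tested genes. The telo box AAACCCTA, common before ribosomal and cell cycle genes, was present in 3.27% of negative, 8% of positive and 5.36% of all windows. The evening element AAATATCT was found in 8% of negative, 7.65% of positive and 5.84% of all windows. The G-box CACGTG, to which MYC2 and the phytochrome-interacting factors bind, was found in 7.27% of negative, 7.3% of positive and 8.52% of all windows, and the GCC box GCCGCC in 1.7%, 1.91% and 2.68%. None of the 10 sulphur starvation genes had a G-box in the window, and 6 had a W-box core. GAGAC, the core of a sulphur-responsive element, was added after the values were seen and was found in 4 of the 10 (40%), against 32.5% of all windows. A short motif occurs often by its length alone, and these shares are descriptions, not binding sites.

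The same interaction was compared with that in MYC2-FLAG shoots, in which 2069 genes (9.81%) were called positive and 1616 (7.66%) negative, 17.5% in all. The difference of the interaction, myc2-3 minus MYC2-FLAG, was called for 3430 genes (16.3%), 1397 (6.62%) on the positive and 2033 (9.64%) on the negative side. The counts of the genotypes were deposited in separate tables, and genotype cannot be told apart from anything else in which these sets of libraries differed. Of the 10 sulphur starvation genes, 7 had a more negative interaction in myc2-3, and the list medians were −2.93 in myc2-3 and −0.06 in MYC2-FLAG shoots. For SHM7 the interaction was −3.86 in myc2-3 and −1.01 in MYC2-FLAG shoots, a difference of −2.86 (adjusted p = 1.28e-06). For APR2 it was −1.82 in myc2-3 and 1.25 in MYC2-FLAG shoots, a difference of −3.07 (adjusted p = 4.5e-08). BFO also lowered these genes under LP in MYC2-FLAG shoots, with log2 responses of −1.84 for SHM7, −1.59 for APR3 and −0.85 for APR2. The responses under NC there were −0.84, −1.59 and −2.10, against 1.23, −0.06 and −0.47 in myc2-3 shoots.

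Jasmonate synthesis and breakdown genes had medians of −1.01 in myc2-3 and 1.82 in MYC2-FLAG shoots, and 11 of 16 differed on the negative side and none on the positive side. JAZ repressors had medians of −0.77 in myc2-3 and 1.78 in MYC2-FLAG shoots, with 6 of 12 negative differences. MYC2 itself was called in MYC2-FLAG shoots (1.98, adjusted p = 0.000885), and its difference between genotypes was −1.49 and not called (adjusted p = 0.207). In MYC2-FLAG shoots under LP it was at 253, 59.2 and 410 CPM with BFO, against 54.3, 56.7 and 54.7 CPM without BFO. Replicate 2 with BFO was thus close to the libraries without BFO. How far single MYC2-FLAG libraries decide this call and the medians above was not tested. Sugar starvation genes had medians of −1.08 in myc2-3 and 0.35 in MYC2-FLAG shoots, with 8 of 16 negative differences. STP1 had −2.18 in myc2-3 and 0.60 in MYC2-FLAG shoots (difference −2.78, adjusted p = 2.61e-08). Of 29 starch and sugar metabolism genes, none was called in myc2-3, and 14 differed between genotypes on the negative side. Leaf markers had medians of −0.52 in myc2-3 and 1.62 in MYC2-FLAG shoots, and 5 of 8 differed on the negative side, a shift of the tissue markers that moves with that of the other lists.

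Shade-response genes went the other way. Their median was −0.24 in myc2-3 and −2.31 in MYC2-FLAG shoots, with 10 of 20 differences on the positive side and 1 on the negative side. HB-2 had −1.80 in myc2-3 and −4.95 in MYC2-FLAG shoots (difference 3.15, adjusted p = 7.02e-06), and HB4 had −4.35 in myc2-3 and −7.13 in MYC2-FLAG shoots (difference 2.78, adjusted p = 0.00157). SAUR genes had medians of 0.69 in myc2-3 and −1.63 in MYC2-FLAG shoots, with 27 of 60 positive differences and 2 negative ones. Nitrate and ammonium genes had medians of −1.10 in myc2-3 and −0.71 in MYC2-FLAG shoots, with 8 of 21 negative differences. BT2 was called in both genotypes, at −3.76 in myc2-3 and −2.15 in MYC2-FLAG shoots (difference −1.61, adjusted p = 0.000776). GDH1 and PAR1 were also called in both, and their differences of −0.08 and −0.17 were not (adjusted p = 0.927 and 0.843).

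**Figure D5:**
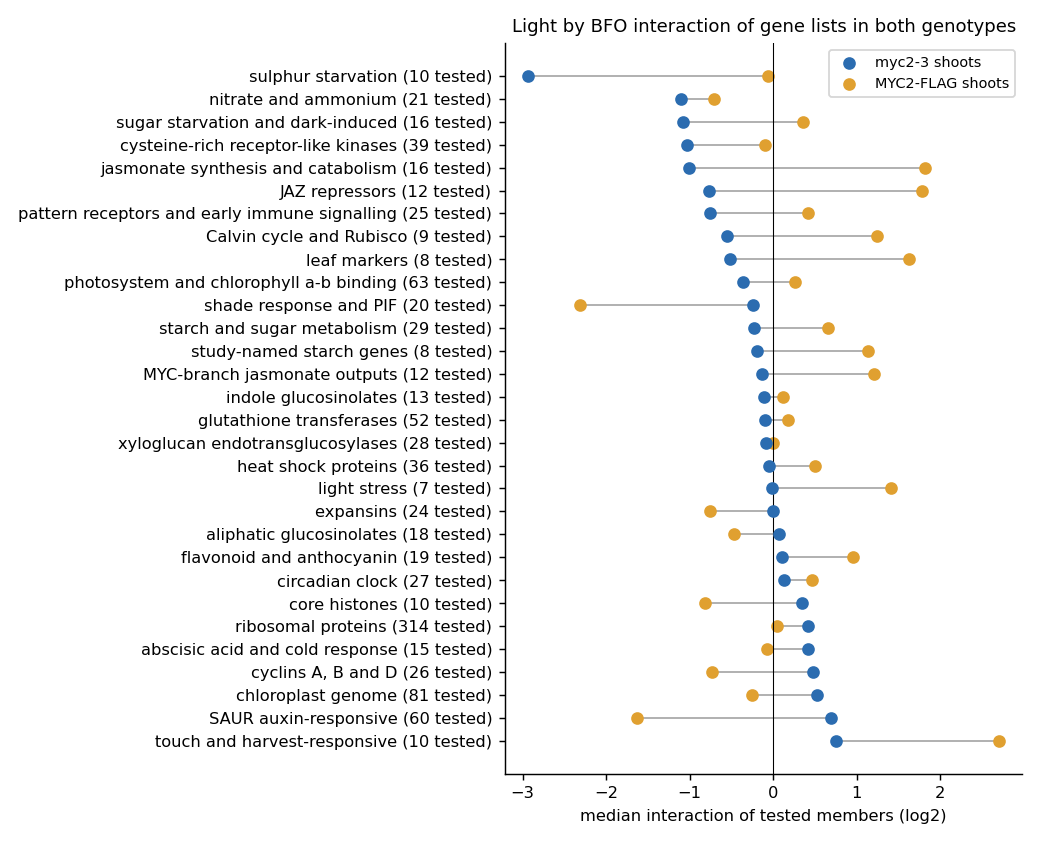
Median interaction (log2) of the tested members of each list in myc2-3 shoots (blue) and in MYC2-FLAG shoots (orange), ordered by the myc2-3 value. The sulphur starvation list lies at −2.93 in myc2-3 and −0.06 in MYC2-FLAG shoots, jasmonate synthesis at −1.01 and 1.82, shade response at −0.24 and −2.31, and SAUR genes at 0.69 and −1.63.

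The study describes its replicates as biological, and the labels do not say which plants went into each library, so p-values measure the spread among these libraries. Left out one at a time, the 12 libraries gave between 1116 and 1573 called genes. Of the 826 negative calls 522 were kept in every one of these fits, and of the 591 positive calls 259 were kept. Without replicate 2 of LP +BFO and of LP −BFO, 583 negative and 309 positive calls were kept.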

How the data were processed

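Gene counts were deposited by the authors as raw counts in 2 tables of 24 libraries each, 1 for myc2-3 and 1 for MYC2-FLAG, made from single reads mapped to the Arabidopsis thaliana genome (TAIR10) with TopHat2 and counted over exons with strand by htseq-count. The labels name FastQC, TopHat2 and HTSeq. The 5 summary lines of the counter were left out (reads with no feature made up 1.48% to 4.08% in the 12 libraries). Each library of myc2-3 shoots held 5162823 to 8970837 gene counts, and the other 36 libraries entered the fit to share the estimate of the spread.

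Genes whose counts summed to over 100 were kept (21098 of 32678 identifiers), counts were TMM-normalised, and a model with 1 mean for each of 16 groups was fitted by edgeR 4.0.16 (quasi-likelihood, two-sided, R 4.3.3). The study used limma-voom, which was run as an alternative (limma 3.58.1), as was DESeq2 1.42.0. Interaction, simple and between-genotype contrasts were tested, with Benjamini-Hochberg adjustment over all genes, and genes were called at an absolute log2 value of at least 1 and adjusted p under 0.05. The standard error of a log2 value was derived from its F statistic.

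Genes named are MYC2, the 8 highest and the 8 lowest called interactions with a mean count of at least 50 and 1 sign in all fits without 1 library, up to 3 called members of each list by adjusted p, and all members of both lists named by the study; other list members were named after their values were seen, as were the joint omission of replicate 2 of both LP groups and the GAGAC motif. Members and lists were chosen with earlier results of these data known. Gene names and promoter sequences came from RefSeq TAIR10.1 (31912 of 32678 identifiers matched). Scripts were tested on simulated counts. Other alternatives were other filters, library subsets, size factors, thinning, a test against a log2 value of 1 and a replicate block. Each of the 12 myc2-3 shoot libraries was also left out in turn.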

Additional observations from a re-analysis of the deposited data

Results flagged for a closer look

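The response to BFO in myc2-3 shoots differed between LP and NC for 1417 genes by edgeR's quasi-likelihood test, as described above. The interaction itself differed between myc2-3 and MYC2-FLAG shoots for 3430 genes, tested as the difference of the interactions. In this difference, genotype cannot be told apart from anything else in which the sets of libraries, deposited in separate tables, differed.

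Among the named genes, the log2 interaction in myc2-3 minus that in MYC2-FLAG shoots was called on the positive side for AT2G21200 (5.38), AT1G29420 (4.63), CYCB1;1 (3.59), CYCB1;4 (3.52), GSTU8 (3.16), HB-2 (3.15), HTA8 (2.88), AZI1 (2.88), HB4 (2.78), EXPA8 (2.78), AT2G21210 (2.19), ATCG00490 (1.92), EXPA1 (1.79), MYB28 (1.19) and GSTF2 (1.14). It was called on the negative side for XTH25 (−6.70), EXO (−4.85), LHCB4.3 (−4.78), SDI1 (−4.76), AT1G50040 (−4.57), EXLA1 (−4.26), CYP94C1 (−4.25), WRKY18 (−3.83), MPK11 (−3.31), APR2 (−3.07), APR3 (−2.86), SHM7 (−2.86), STP1 (−2.78), NAC055 (−2.75), TPS11 (−2.36) and LOX2 (−2.34). Smaller negative differences were called for HCHIB (−2.27), TCH3 (−2.04), PEN3 (−2.03), LYK4 (−1.99), JAZ3 (−1.92), LSF1 (−1.86), SS3 (−1.85), COR15A (−1.78), BT2 (−1.61), NPR3 (−1.47), ADG1 (−1.45), CRK2 (−1.39), TPS8 (−1.31), FLS2 (−1.09), PEN2 (−1.09), XTH30 (−1.07) and SS1 (−1.04). The 3 named SAUR genes (AT2G21200, AT1G29420 and AT2G21210), the expansins EXPA1 and EXPA8 and both named cyclins were on the positive side, and the expansin-like EXLA1, EXO and the xyloglucan endotransglucosylases XTH25 and XTH30 were on the negative side, where the adenosine phosphosulphate reductases, starch genes and jasmonate genes listed here also stood. XTH25 and AT2G21200 were near 0 in at least 1 group, so the size of their difference depends on few counts.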

How the results depend on the processing

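With 3 libraries a group, single libraries decided some calls. The 1417 calls were 591 positive and 826 negative. When the 12 myc2-3 shoot libraries were left out in turn, the calls numbered 1116 to 1573 (443 to 676 positive, 673 to 897 negative). BFO calls ranged from 1381 to 1565 under LP (867 to 1016 positive, 514 to 589 negative) and from 2735 to 3045 under NC (1673 to 1837 positive, 1062 to 1213 negative), LP calls from 1336 to 1540 without BFO (648 to 787 positive, 626 to 771 negative) and from 1288 to 1892 with BFO (752 to 1106 positive, 528 to 786 negative), and between-genotype calls from 3011 to 3691 (1216 to 1524 positive, 1795 to 2167 negative). No MYC2-FLAG library was left out, so the dependence of the between-genotype calls on single MYC2-FLAG libraries was not tested. The lowest interaction count came without LP −BFO replicate 2. Without replicate 2 of both LP groups (added after seeing the data) 374 positive and 639 negative interaction calls were made.

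A test against a log2 value of 1 (glmTreat), which is stricter by construction, gave 168 interaction calls (38 positive, 130 negative). It gave 426 for BFO under LP (330 positive, 96 negative), 1351 for BFO under NC (958 positive, 393 negative), 294 for LP without BFO (115 positive, 179 negative), 167 for LP with BFO (89 positive, 78 negative) and 782 between genotypes (261 positive, 521 negative). Positive and negative interaction calls were 626 and 908 by DESeq2, 519 and 784 by limma-voom, and 758 and 863 with the 24 myc2-3 libraries only. They were 517 and 911 with the 12 myc2-3 shoot libraries only, and 477 and 809 with the 24 shoot libraries only. The negative share of calls was 53.2% with the 24 myc2-3 libraries and 63.8% with the 12 myc2-3 shoot libraries, against 58.3% in the main fit. Of the calls of the main fit, 444 positive and 722 negative were kept by both DESeq2 and limma-voom. With the replicate number as a block there were 540 positive and 825 negative calls. The number does not pair the samples: deviations from group means of same-numbered libraries correlated at −0.207 to 0.141 (median −0.019, 18 pairs). Among the 90 called genes named by the rules given above, no interaction changed direction under any of these alternatives. Genes named only after their values were seen were not checked singly. Interactions that were not called could change sign, as that of AZI1 did (−0.29 with all libraries, 0.33 without LP −BFO replicate 2). Of the 90 called genes named by rule, 65 were called without any 1 library and 68 without replicate 2 of both LP groups.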
